A study of Ovis aries with 2 samples.

Results

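The HOX cluster genes were followed through the single-cell transcriptomes of sheep embryos at embryonic day 16 (E16). Members were all features whose symbol reads HOX, a cluster letter from A to D and a number with nothing after it. They were 36 of the 26478 features, 10 in cluster A, 10 in cluster B, 8 in cluster C and 8 in cluster D, and they covered all 13 paralogue numbers. The rule used symbols and no measured value. The study set Hulunbuir Short-tail sheep, which have a small tail, against Ujumqin sheep, which have a fat tail and a multi-vertebral trait, as the control. Each breed gave 1 library, made with the 10x Genomics 3′ chemistry from embryos cut free of extraembryonic tissue and treated to lyse red cells. The study states that embryos were pooled after dissociation. The design text gives n = 3 per breed without saying plainly whether 3 embryos went into each library, and cells carry no label of an embryo. Breed, embryos, exact stage and library therefore cannot be told apart, no test between the breeds was possible, and all 95% intervals below cover counting error only.

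HOX genes encode homeodomain transcription factors that tell cells where they lie along the head to tail axis. Genes with low paralogue numbers are switched on early and reach far forward, while genes with high numbers come on later and mark the lumbar, sacral and tail levels. The late genes of clusters A and D are also known from the limb buds, the genital tubercle, the allantois and the hindgut region, and each cluster is under the control of posterior signals, retinoic acid and chromatin regulators.

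Kept cells had at least 200 genes and under 10% mitochondrial UMIs (unique molecular identifiers, each standing for 1 captured transcript). They were 14554 Ujumqin cells with a median of 9519 UMIs and 9583 Hulunbuir cells with a median of 11879 UMIs, and 61 barcodes occurred in both libraries. Each cell was assigned by 19 lists of marker genes that hold no HOX gene, and classes carry the ending -like. A level is the count of UMIs of a gene in each 1000000 UMIs of a class (CPM). In Ujumqin, 4569 kept cells were erythroid-like and held HOX members at 2.43 CPM (95% interval 2.13 to 2.76). This was the lowest level of a class with HOX UMIs and is given below as the background of Ujumqin only. Whether it is free RNA was not tested. Hulunbuir had only 3 such cells, so no background is given for that library. Its 32 ExE endoderm-like cells held 130 CPM (97.7 to 170), from 54 HOX UMIs, against 16.1 CPM in 710 Ujumqin cells of that class. The part of free RNA in the Hulunbuir levels was not tested. Erythroid markers other than in erythroid-like cells summed to 28.6 to 994 CPM in Ujumqin classes of any size except the 16 intermediate mesoderm-like cells at 15.4 CPM, and to 0 to 2.41 CPM in Hulunbuir classes. Comparisons between the libraries below leave the erythroid-like cells out, and the part of the remaining red cell RNA in them was not tested.

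HOX transcripts were most abundant in the caudal progenitor-like and presomitic mesoderm-like cells, among the Hulunbuir classes of at least 50 cells. The 852 caudal progenitor-like cells, marked by CDX2, CDX4, FGF8 and WNT5B, held 778 CPM over all members (762 to 794), and the 279 presomitic mesoderm-like cells, marked by DLL1, DLL3 and RIPPLY2, held 718 CPM (690 to 746). The 96 somite-like cells held 445 CPM (412 to 479), and the 122 neural tube-like cells 320 CPM (293 to 348). These 4 classes are called axial here. The remaining classes of that size ran from 449 CPM down to 199 CPM. In that order lay the 308 cardiomyocyte-like cells at 449 CPM, the 52 intermediate mesoderm-like cells at 390, the 429 allantois-like cells at 367, the 1273 keratin epithelium-like cells at 334, the 616 splanchnic mesoderm-like cells at 231, the 484 endothelium-like cells at 200 and the 1344 mesenchyme-like cells at 199. Intervals overlapped between the somite-like and cardiomyocyte-like, the somite-like and intermediate mesoderm-like, the intermediate mesoderm-like and allantois-like, the keratin epithelium-like and neural tube-like, and the endothelium-like and mesenchyme-like classes. The cardiomyocyte-like class was uneven, since MYL7 was found in 12.3% of its cells and the defining factor NKX2-5 in 0.325%.

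**Figure D1:**
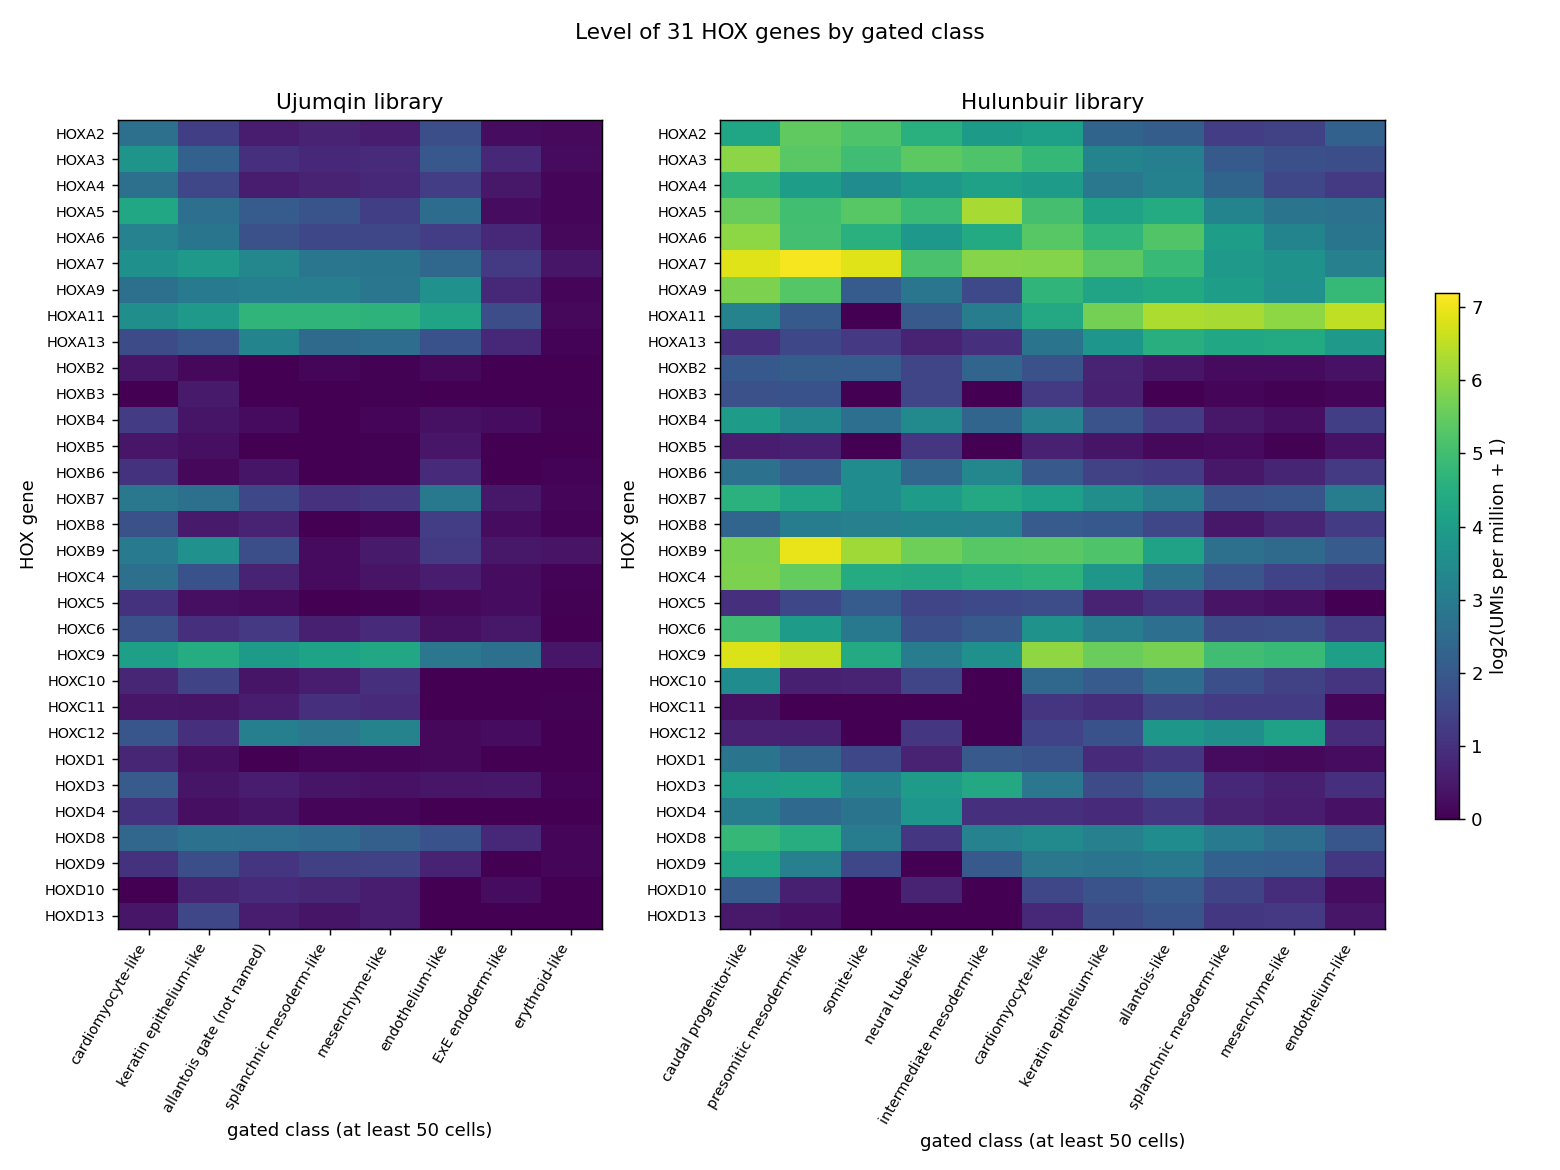
Level of the 31 HOX genes with at least 50 UMIs (rows) in gated classes of at least 50 cells (columns), as log2(CPM + 1), for the Ujumqin and Hulunbuir libraries. In Hulunbuir, HOXA7 and HOXB9 are brightest in the presomitic mesoderm-like and somite-like classes on the left. HOXA11 and HOXA13 are brightest in the mesodermal and endothelial classes on the right, and the Ujumqin panel is dimmer.

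The caudal progenitor-like cells of Hulunbuir embryos held mainly the genes of paralogues 2 to 9, with a sharp drop beyond. Paralogue 1 was at 7.09 CPM, below paralogue 10 at 13.5 CPM, which is HOXC10 and HOXD10 only. Paralogues 1 to 5 stood at 253 CPM (244 to 262), paralogues 6 to 9 at 501 CPM (489 to 514) and paralogues 10 to 13 at 24.2 CPM (21.5 to 27.1). The leading genes were HOXA7 at 114 CPM and HOXC9 at 111 CPM, both of the trunk part of the code. Around them lay HOXA6 at 61.6 CPM, HOXA3 at 61.2, HOXC4 at 53.7, HOXA9 at 53.6, HOXB9 at 52.5 and HOXA5, which patterns the neck vertebrae and the lung, at 44.7. Of the 30 members with at least 50 UMIs in the Hulunbuir library, 13 had their highest class level in these cells, more than in any other class. They included low ones such as HOXD1 at 5.84 CPM and HOXC10, a gene of the lumbar and hindlimb level, at 10.3 CPM. Some leads were small, such as HOXB7 at 23.0 CPM against 19.3 CPM in the intermediate mesoderm-like cells. The share of all features with their highest level in the caudal progenitor-like cells was not counted. The 13 therefore cannot be read as particular to HOX genes.

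In Hulunbuir, the presomitic mesoderm-like cells, the unsegmented tissue that buds off somites, differed from the somite-like cells most in paralogue 9. HOXA9 stood at 38.5 CPM (32.4 to 45.5) in the presomitic cells and at 3.24 CPM in the somite-like cells, a log2 difference of 3.57 (2.32 to 5.22). HOXC9 was at 91.8 and 20.1 CPM, a log2 difference of 2.19 (1.66 to 2.77), while HOXB9 was at 125 and 71.2 CPM, a log2 difference of 0.81 (0.50 to 1.12). Paralogue 9 was thus lower in the somites in all these clusters, and least so in cluster B. In the few Ujumqin cells of these classes paralogue 9 was at 74.4 CPM in the presomitic (53.4 to 101) and 84.2 CPM in the somite-like cells (68.5 to 102), and the intervals overlapped. HOXA7 (137 and 115 CPM), HOXA2 (42.2 and 36.3 CPM) and HOXA5 (31.5 and 38.9 CPM) lay within counting error of each other. Of 19 members with at least 20 UMIs in the pair, 6 were at least 2-fold higher in the presomitic cells and 1, HOXB6, at least 2-fold lower, where 4.89% and 2.84% of all 6305 features tested were so. The 6 were HOXA9, HOXC4, HOXC6, HOXC9, HOXD8 and HOXD9.

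The neural tube-like cells, marked by SOX2, PAX6 and IRX3, had the largest share of early genes among the classes of at least 50 cells. Paralogues 1 to 5 made up 54.0% of their HOX UMIs, against 51.0% in the intermediate mesoderm-like, 32.5% in the caudal progenitor-like and 37.4% in the somite-like cells. HOXC9 was at 7.24 CPM against 111 CPM in the caudal progenitor-like cells, a log2 difference of -3.94 (-4.89 to -3.13), and HOXD9 had 0 UMIs, or at most 1.81 CPM when 0 is taken as 3 counts, against 18.0 CPM. HOXB9 was the exception among the paralogue 9 genes, at 48.3 and 52.5 CPM. HOXD4, a gene of the hindbrain and neck, was at 12.7 and 7.17 CPM, and HOXB8 at 8.45 and 4.09 CPM. Of 25 members tested, 12 were at least 2-fold lower and 1, HOXB8, at least 2-fold higher in the neural tube-like cells, where 9.41% and 5.28% of all features were so.

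**Figure D2:**
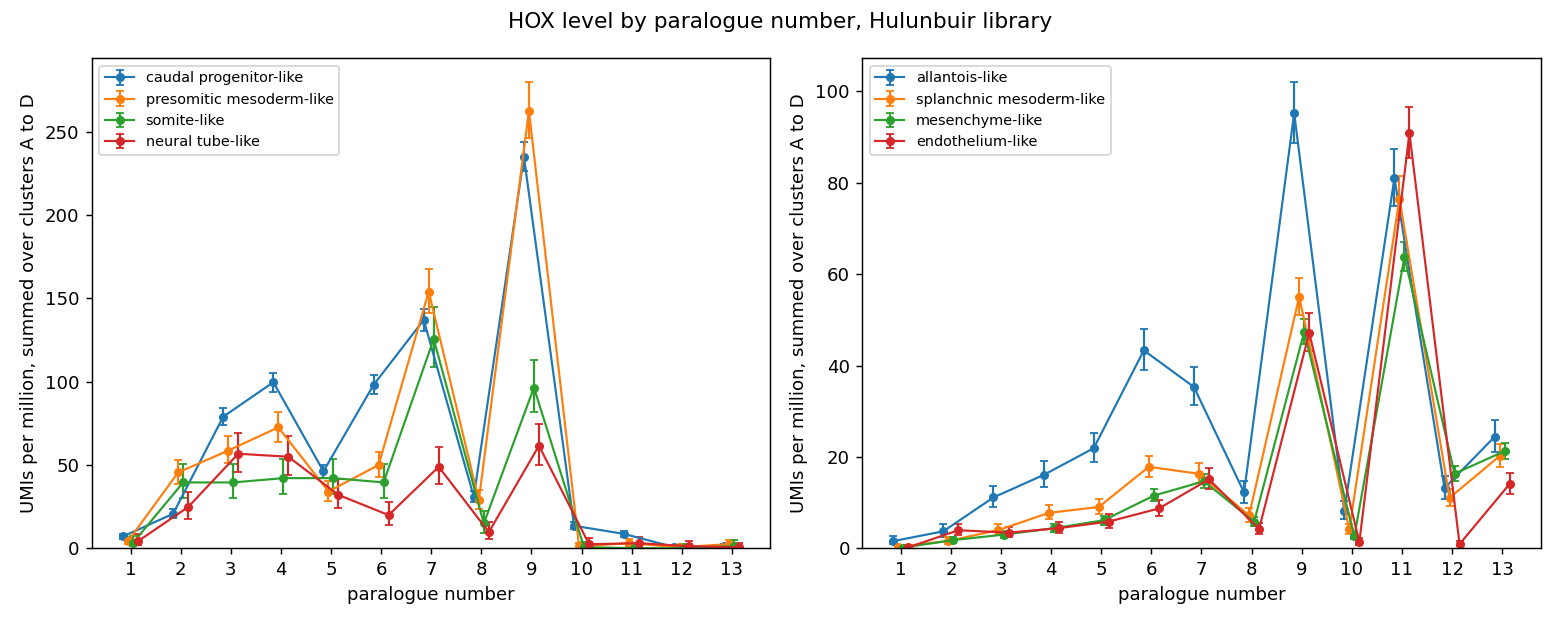
HOX level by paralogue number in the Hulunbuir library, in CPM summed over clusters A to D (vertical axes differ), with exact Poisson 95% intervals; lines join the values of a class. The axial classes on the left fall to between 0.648 and 13.5 CPM at paralogue 10 and stay low beyond, while the classes on the right rise again at paralogue 11, to between 63.8 and 90.9 CPM. Paralogue 10 sums only HOXC10 and HOXD10, since no feature carried the symbol HOXA10, so the dip there is best read across classes and not across paralogues.

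Late HOX genes were highest in 4 classes outside the axis. Paralogues 10 to 13 stood at 127 CPM in the allantois-like cells (119 to 135), at 112 CPM in the splanchnic mesoderm-like (106 to 118), at 107 CPM in the endothelium-like (101 to 113) and at 104 CPM in the mesenchyme-like cells (100 to 108), and they reached 74.5 CPM in the keratin epithelium-like cells (70.2 to 78.9). Other classes outside the axis held less, with 35.1 CPM in the cardiomyocyte-like and 8.11 CPM in the intermediate mesoderm-like cells (3.503 to 15.99). In the somite-like cells they were at 1.94 CPM (0.401 to 5.68), from 3 UMIs, and in the presomitic mesoderm-like cells at 7.26 CPM (4.74 to 10.6). These late genes were 52.3% of the HOX UMIs of the mesenchyme-like and 53.6% of those of the endothelium-like cells, against 3.11% in the caudal progenitor-like, 1.01% in the presomitic mesoderm-like and 0.437% in the somite-like cells. The UMI-weighted mean paralogue number was 9.59 in the mesenchyme-like, 9.43 in the endothelium-like, 9.28 in the splanchnic mesoderm-like and 8.51 in the allantois-like cells. It was 6.67 in the presomitic mesoderm-like, 6.53 in the caudal progenitor-like, 6.08 in the somite-like and 5.55 in the neural tube-like cells. The mean is a description of these counts, because 3′ tag counts of different genes also depend on how well each 3′ end is annotated, so a level is best read for 1 gene across classes.

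In the allantois-like, splanchnic mesoderm-like, endothelium-like and mesenchyme-like cells most of the late signal of the members was 3 genes. HOXA11, known from the forearm, kidney and uterus, stood at 90.8 CPM in the endothelium-like, 79.2 in the allantois-like, 75.1 in the splanchnic mesoderm-like and 62.4 in the mesenchyme-like cells. It was at 8.34 CPM in the caudal progenitor-like, 3.07 in the presomitic mesoderm-like and 3.02 in the neural tube-like cells, with 0 UMIs in the somite-like cells, or at most 1.94 CPM when 0 is taken as 3 counts. HOXA13, which shapes the digits, the genital tubercle and the umbilical vessels, stood at 21.8 CPM in the allantois-like, 19.99 in the mesenchyme-like, 18.9 in the splanchnic mesoderm-like and 13.7 in the endothelium-like cells, and between 0.604 and 1.95 CPM in the caudal progenitor-like, presomitic mesoderm-like, somite-like and neural tube-like cells. Both were also present in the keratin epithelium-like cells, at 50.4 CPM (HOXA11) and 12.7 CPM (HOXA13), and both were low in the same 4 axial classes. HOXC12, a late gene of cluster C, was at 16.3 CPM in the mesenchyme-like, 12.9 in the allantois-like and 11.02 in the splanchnic mesoderm-like cells, and at or below 2.50 CPM in the other Hulunbuir classes of at least 50 cells. The paralogue 10 to 13 genes of cluster D stayed low, with HOXD10 at most at 3.23 CPM and HOXD13, a digit and tail gene, at most at 2.63 CPM, both in the allantois-like cells.

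The mesenchyme-like cells, marked by DCN, LUM and TWIST1, thus showed the caudal profile turned over. Against the caudal progenitor-like cells, 24 of 29 members tested were at least 2-fold lower and 5 at least 2-fold higher, where 12.2% and 10.6% of all 9954 features were so. The 5 higher ones were HOXA11, HOXA13, HOXC11, HOXC12 and HOXD13, with log2 differences from 1.61 for HOXD13 to 4.81 for HOXC12. HOXC10 and HOXD10, the members of paralogue 10 in the files, went the other way, at 1.67 against 10.3 CPM and at 0.914 against 3.17 CPM. Of the members described, those of paralogues 11 to 13 were thus higher and those of paralogue 10 lower in the mesenchyme-like cells. The feature hoxd11, which the rule on symbols leaves out, was lower there as well, at 1.43 CPM (1.00 to 1.98) against 3.503 CPM (2.52 to 4.73). HOXC9 remained the second most abundant member of the mesenchyme-like cells at 27.7 CPM (25.7 to 29.9), a log2 difference of -2.00 from its caudal level.

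The endothelium-like cells, marked by PECAM1, KDR and PLVAP, shared HOXA11 and HOXA13 with the mesenchyme-like cells but not HOXC12. HOXC12 was at 0.897 CPM, from 10 UMIs, against 16.3 CPM in the mesenchyme-like cells, a log2 difference of -4.19 (-5.26 to -3.29), and HOXC11 had 1 UMI against 36. HOXA11 was the higher in the endothelium-like cells, 90.8 against 62.4 CPM, a log2 difference of 0.54 (0.43 to 0.66). HOXA9, known from blood and endothelial precursors, was higher as well, at 27.1 (302 UMIs) against 11.6 CPM, a log2 difference of 1.22 (0.99 to 1.46). The proportions of the late genes hence differed between the classes. In the Ujumqin library the same genes stood at 17.3 CPM (HOXA11), 11.5 CPM (HOXA9) and 0.121 CPM (HOXC12) in 197 endothelium-like cells, and at 24.4, 6.05 and 8.34 CPM in 922 mesenchyme-like cells. Both libraries thus had HOXA9 higher and HOXC12 lower in the endothelium-like cells, while HOXA11 was higher there in Hulunbuir and lower in Ujumqin. Of 25 members tested between these classes in Hulunbuir, 5 were at least 2-fold higher (HOXA2, HOXA9, HOXB4, HOXB7 and HOXB8) and 5 at least 2-fold lower in the endothelium-like cells (HOXC11, HOXC12, HOXD9, HOXD10 and HOXD13), where 9.62% and 10% of all 9803 features were so. Against the caudal progenitor-like cells, 23 of 26 members were at least 2-fold lower, where 14.2% of all features were so, and 2, HOXA11 and HOXA13, at least 2-fold higher, where 11.6% were so.

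The allantois-like cells, marked by TBX4, PITX1, HAND1 and TBX3, held the late genes with more early and middle ones than the mesenchyme-like cells. Paralogues 1 to 5 stood at 54.3 against 15.4 CPM, and paralogues 6 to 9 at 186 against 79.4 CPM. Against the mesenchyme-like cells, 18 of 25 members were at least 2-fold higher and 0 at least 2-fold lower, where 2.65% and 1.56% of all 9508 features were so. HOXA6 stood at 36.7 against 8.58 CPM, HOXB9 at 16.6 against 4.65, HOXA5 at 20.7 against 5.84 and HOXC9 at 52.3 against 27.7, while HOXA13 was at 21.8 and 19.99 CPM. Of the late genes, HOXA11, HOXA13, HOXC11 and HOXC12 thus lay within 2-fold, while HOXC10, HOXD10 and HOXD13 were among the 18. In the keratin epithelium-like cells, marked by KRT8, KRT18 and KRT19, HOXA11 (50.4 CPM), HOXC9 (46.1), HOXA7 (40.8), HOXB9 (36.0) and HOXA6 (25.7) stood side by side, and paralogues 6 to 9 made up 60.5% of the HOX UMIs. The intermediate mesoderm-like cells, marked by LHX1 and EMX2 but also led by SST, INS and C1QA, had HOXA5 as their leading member at 76.1 CPM, with HOXA9 at 2.03 CPM. The cardiomyocyte-like cells had a trunk profile close to the caudal one, led by HOXC9 at 62.6 CPM, HOXA7 at 57.7 and HOXB9 at 40.2, with a mean paralogue number of 6.81. With 4 markers required in place of 3, all members together stood at 421 CPM in that class.

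**Figure D3:**
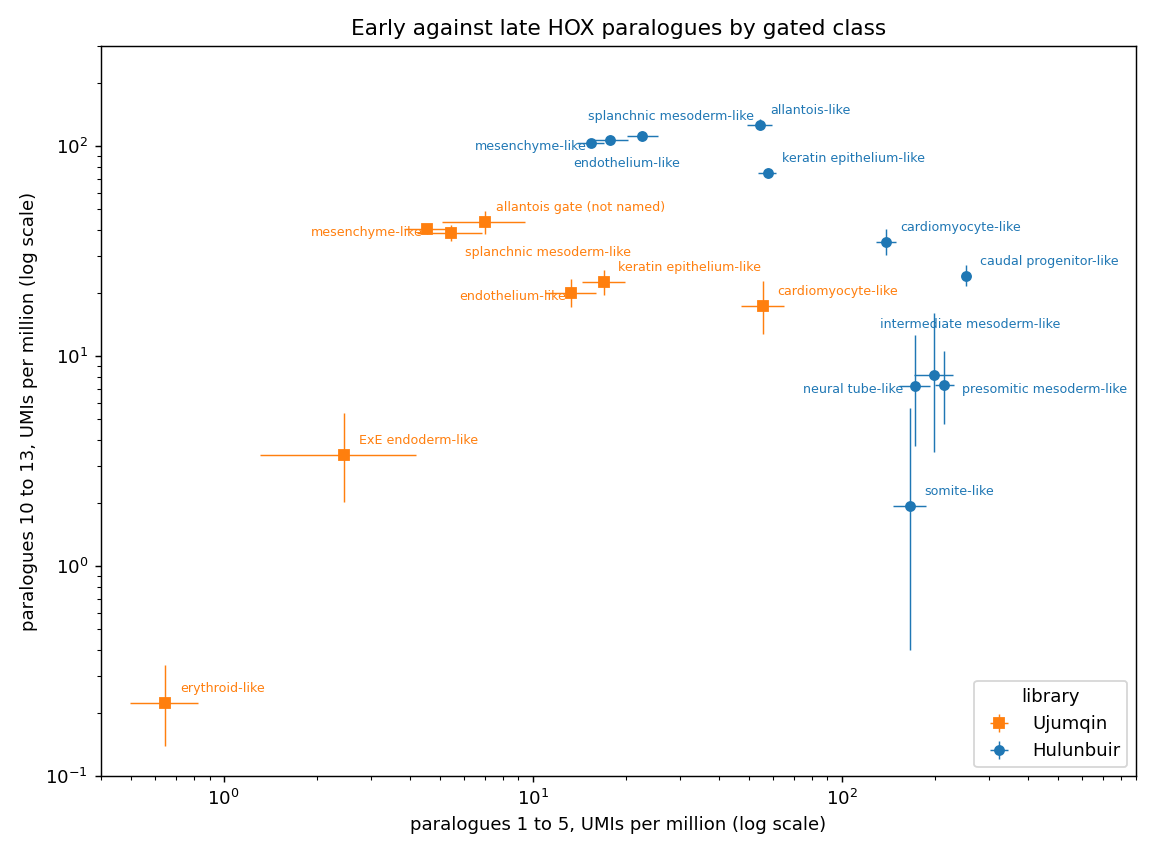
Level of paralogues 1 to 5 (horizontal) against paralogues 10 to 13 (vertical), both in CPM on log scales, for gated classes of at least 50 cells, with exact Poisson 95% intervals; orange squares are Ujumqin, blue circles Hulunbuir. The axial classes of Hulunbuir lie at the right with paralogues 10 to 13 at 1.94 to 24.2 CPM, and mesenchyme-like, endothelium-like, splanchnic mesoderm-like and allantois-like cells lie above at 104 to 127 CPM.

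The clusters differed in how much they gave to each class. Cluster A was the largest part everywhere, from 47.6% of the HOX UMIs in the presomitic mesoderm-like to 79.1% in the endothelium-like cells of Hulunbuir. Cluster B gave 28.5% in the neural tube-like and 23.5% in the presomitic mesoderm-like cells but 4.60% in the mesenchyme-like cells, where its level was 9.14 CPM (7.997 to 10.4) against 168 CPM (155 to 182) in the presomitic cells. HOXB9 alone was 125 CPM of the latter. Cluster C gave 26.7% in the caudal progenitor-like and 25.9% in the mesenchyme-like cells, from HOXC9 and HOXC4 in the first and from HOXC9 and HOXC12 in the second. Cluster D was the smallest part in the axial classes and gave 3.00% in the endothelium-like cells. The rise of the mean paralogue number from caudal progenitor-like to mesenchyme-like cells was seen within cluster A (5.93 to 9.76), cluster B (7.30 to 7.83), cluster C (7.30 to 9.72) and cluster D (6.45 to 8.51), and from caudal progenitor-like to endothelium-like cells it fell within cluster B, to 6.98.

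The share of cells with a HOX UMI differed widely between the classes. After each cell was thinned to 1000 UMIs, 50.9% of the caudal progenitor-like (47.5 to 54.3%), 54.5% of the presomitic mesoderm-like, 39.6% of the somite-like, 32.9% of the allantois-like, 18.4% of the endothelium-like and 17.7% of the mesenchyme-like cells of Hulunbuir had a HOX UMI. Without thinning the shares were 99.5% of the caudal progenitor-like (median 12669.5 UMIs) and 91.3% of the mesenchyme-like cells (median 18123 UMIs). The background of Ujumqin was 0.241% in its thinned erythroid-like cells (3.00% unthinned, at a median of 21082 UMIs), and Hulunbuir has no such value of its own. In the caudal progenitor-like cells 193 thinned cells had a UMI of paralogues 1 to 5 or 10 to 13, and 176 of them had the early and not the late genes (91.2%, 86.3 to 94.8%). In the mesenchyme-like cells there were 143 such cells, and 118 had the late and not the early genes (82.5%, 75.3 to 88.4%). The endothelium-like cells were like the mesenchyme-like cells in this, with 41 of 52 (78.8%). Cells with both were 3 caudal progenitor-like, 3 mesenchyme-like and 0 of 477 endothelium-like cells, but at 1000 UMIs most transcripts of a cell go unseen, so these counts restate the levels of each class and do not show that single cells keep early and late genes apart.

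The Ujumqin embryos held the late genes in the same mesodermal classes, at lower levels. HOX members summed to 138 CPM in 141 cardiomyocyte-like cells, 113 in 957 keratin epithelium-like, 85.7 in the mesenchyme-like, 84.5 in 295 splanchnic mesoderm-like, 70.4 in the endothelium-like and 16.1 in 710 ExE endoderm-like cells. The 124 cells that fell to the allantois markers held 96.5 CPM, but 2 keratin genes and 1 allantois marker were among their 10 genes of largest fold, so they stay unnamed. Paralogues 10 to 13 made up 47.2% of the HOX UMIs of the mesenchyme-like, 45.8% of the splanchnic mesoderm-like and 28.4% of the endothelium-like cells. The mean paralogue number was 9.57 in the mesenchyme-like cells against 9.59 in Hulunbuir, and 9.46 against 9.28 in the splanchnic mesoderm-like cells. In the endothelium-like cells it was lower, at 8.18 against 9.43. Axial cells were few in this library, 16 caudal progenitor-like, 21 presomitic mesoderm-like, 32 somite-like and 16 neural tube-like cells. Their levels, 496 CPM (443 to 554), 299 CPM (256 to 349), 322 CPM (290 to 356) and 91.5 CPM (62.6 to 129), rest on 32 to 382 HOX UMIs. In the caudal progenitor-like cells HOXC9 led at 107 CPM and HOXA7 followed at 53.4 CPM, with 0 UMIs of HOXA11, HOXA13 and HOXC12, and the mean paralogue number was 6.55. In the somite-like cells HOXA7 led at 75.8 CPM and paralogues 10 to 13 had no UMI. The presomitic mesoderm-like cells differed from those of Hulunbuir, since paralogues 10 to 13 were 12.1% of their 165 HOX UMIs and HOXA11 stood at 23.6 CPM. Their markers were uneven. DLL3 was found in 90.5% and DLL1 in 71.4% of these Ujumqin cells, but TBX6 had 1 UMI and MSGN1 0. RSPO3, another gate marker of the class, was also at 71.35 CPM in the other kept Ujumqin cells. The part of this in the difference was not tested. Across the 36 genes the levels of the same class in both libraries had a Pearson correlation of 0.927 to 0.956. Between different classes it ran from 0.569 (Ujumqin mesenchyme-like with Hulunbuir cardiomyocyte-like) to 0.945 (Ujumqin cardiomyocyte-like with Hulunbuir ungated cells). The Ujumqin cardiomyocyte-like profile was thus closer to the Hulunbuir ungated cells than to its own class (0.927). Likewise, the Ujumqin splanchnic mesoderm-like profile was closer to the Hulunbuir mesenchyme-like (0.943) than to its own class (0.931). Genes are not independent replicates, and the correlations describe likeness of profile.

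HOX members summed to a higher level in the Hulunbuir library in each set of cells with at least 50 cells in both libraries. Among smaller classes the intermediate mesoderm-like cells went the other way, at 604 CPM in 16 Ujumqin cells (535 to 680) and 390 CPM in 52 Hulunbuir cells (352 to 430). In cells that were not erythroid-like, members summed to 352 CPM in Hulunbuir and 96.2 CPM in Ujumqin, a log2 fold of 1.87 (1.84 to 1.90). Of 33 members with at least 20 UMIs over both libraries, 31 were at least 2-fold higher in Hulunbuir, where 21.2% of all 13251 features tested were, and 0 were at least 2-fold lower, where 5.77% were. At 4-fold there were 16, where 4.6% of features were. The median log2 fold was 1.98 over the members and 0.45 over all features. The 2 members short of 2-fold were HOXC12 (7.74 and 4.06 CPM, log2 fold 0.93, 0.77 to 1.09) and HOXC11 (0.871 and 0.442 CPM, log2 fold 0.98). The highest folds belonged to HOXD1 (1.49 and 0.144 CPM), HOXB2 (1.16 and 0.117 CPM), HOXB4 (3.85 and 0.388 CPM) and HOXC4 (13.8 and 1.60 CPM), mostly genes of the front part of the code. Paralogues 1 to 5 had a log2 fold of 2.29 (2.22 to 2.36), paralogues 6 to 9 of 1.86 (1.81 to 1.90) and paralogues 10 to 13 of 1.55 (1.49 to 1.61). These sets mix classes in different proportions, and the caudal progenitor-like class, which carries mainly paralogues 2 to 9, was 852 Hulunbuir and 16 Ujumqin cells.

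Within the gated classes compared the fold of all members together was smaller, while single genes had smaller or larger folds than in all cells that were not erythroid-like. In the mesenchyme-like cells the members summed to 199 CPM in Hulunbuir and 85.7 CPM in Ujumqin, a log2 fold of 1.21 (1.15 to 1.28). There 15 of 23 members were at least 2-fold higher, where 13.9% of all features were, and 0 lower, where 4.06% were. The markers of this class also differed between the libraries. PRRX1 was found in 51.2% of the Hulunbuir and 20.8% of the Ujumqin mesenchyme-like cells, and TCF21 in 44.6% and 76.8%. The part of this unlike make-up in the fold was not tested. HOXA13 (19.99 and 4.98 CPM, log2 fold 2.00), HOXB9 (4.65 and 0.439 CPM, log2 fold 3.41, 2.60 to 4.32) and HOXA6 (8.58 and 1.88 CPM) were well apart, while HOXC9 (27.7 and 18.9 CPM, log2 fold 0.55) and HOXD8 (5.09 and 3.57 CPM) were close. In the splanchnic mesoderm-like cells the log2 fold was 1.45, with 17 of 21 members at least 2-fold higher (14.5% of all features, with 3.95% lower), and HOXB9 was at 5.36 CPM against 0.157 CPM, from 70 and 2 UMIs. In the keratin epithelium-like cells it was 1.57, with 21 of 24 members (15.9%, with 3.17% lower), and in the cardiomyocyte-like cells 1.70, with 16 of 20 (15.2%, with 4.17% lower). The splanchnic mesoderm-like classes were unlike in make-up. Their 10 genes of largest fold held 6 of their markers in Hulunbuir. In Ujumqin they held 1, HAND2, and 1 presomitic marker, RSPO3. The part of this in the fold was not tested. The cardiomyocyte-like classes were unlike as well. MYL7 was found in 12.3% of the Hulunbuir and 38.3% of the Ujumqin cells, and TNNI3 in 86.7% and 49.6%. The 3679 Hulunbuir and 6492 Ujumqin cells that passed no gate held 359 and 97.4 CPM, a log2 fold of 1.88 (1.82 to 1.94), with 30 of 30 members at least 2-fold higher (26.2%, with 4.64% lower). These cells were unlike mixtures. Their genes of largest fold included SST, INS and C1QA in Hulunbuir and the megakaryocyte markers GP1BB and CLEC1B in Ujumqin. Their median UMIs were 6695 and 1262.5, and their erythroid markers stood at 1.17 and 492 CPM. The part of this in the fold was not tested. In none of these sets was a tested member at least 2-fold lower.

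In the endothelium-like cells the late genes differed more between the libraries than the early ones. All members together had a log2 fold of 1.51 (1.38 to 1.64), but paralogues 1 to 5 stood at 17.8 CPM in Hulunbuir and 13.3 CPM in Ujumqin (log2 fold 0.41, 0.07 to 0.76), paralogues 6 to 9 at 75.2 and 37.0 CPM (1.02, 0.83 to 1.22) and paralogues 10 to 13 at 107 and 20.01 CPM (2.42, 2.19 to 2.67). HOXA11 was at 90.8 and 17.3 CPM, a log2 fold of 2.39 (2.13 to 2.65), and HOXA13 at 13.7 and 2.55 CPM, a log2 fold of 2.43. HOXA6 was at 6.01 and 1.46 CPM, a log2 fold of 2.05, and HOXA9, HOXB9 and HOXC9 were also at least 2-fold higher. HOXA3 was at 2.33 and 2.91 CPM and HOXA5 at 5.56 and 4.85 CPM. Of 15 members tested, 6 were at least 2-fold higher, where 17.5% of all features were, and 0 lower, where 4.47% were. In the mesenchyme-like cells the corresponding log2 folds by paralogue were 1.76, 0.96 and 1.36, and in the cells that passed no gate they were 1.97, 1.73 and 2.38. With 1 library per breed the difference between the classes was not tested. The mitochondrial share of UMIs in the endothelium-like cells was 5.26% in Hulunbuir and 3.79% in Ujumqin, and APOA1, an extraembryonic endoderm marker, was among the 10 genes of largest fold in Hulunbuir. Their part in the difference was not tested.

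**Figure D4:**
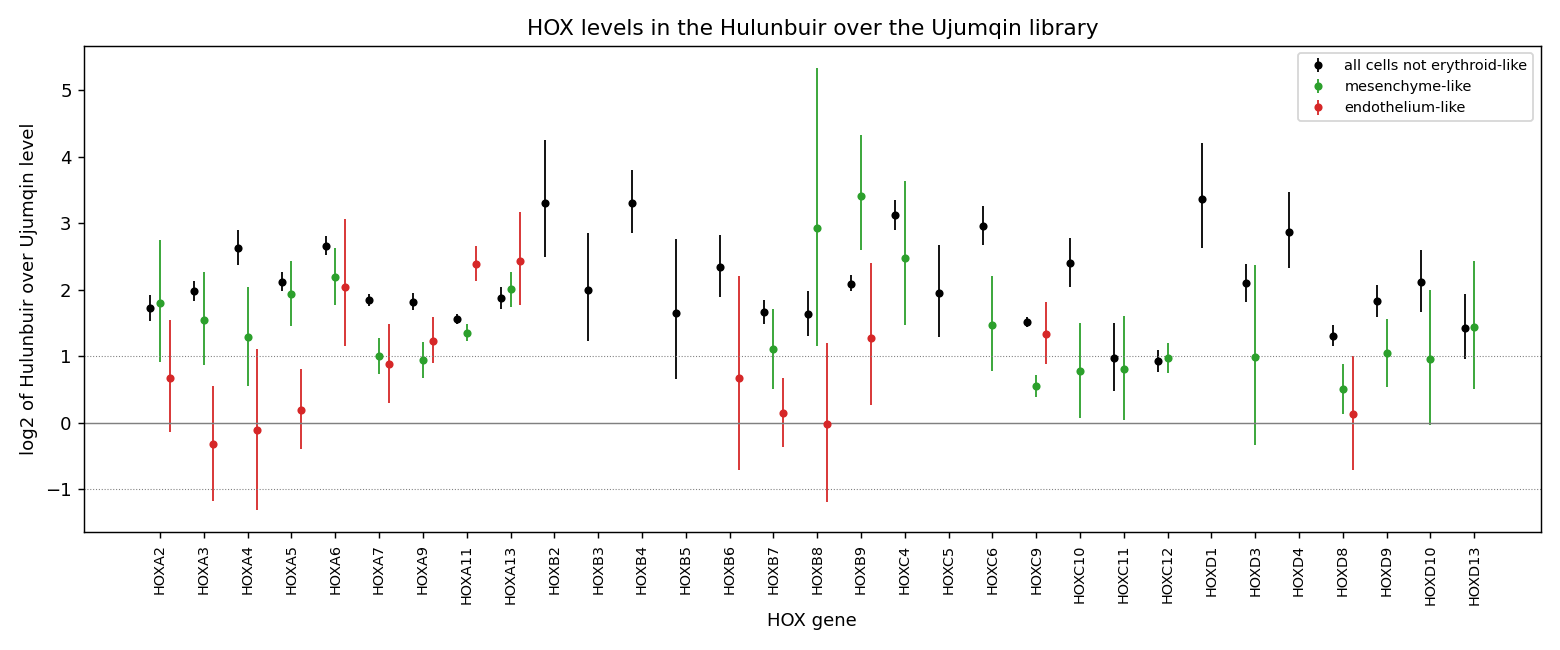
Log2 of the Hulunbuir over the Ujumqin level of each HOX gene with at least 50 UMIs, for all cells that are not erythroid-like (black), mesenchyme-like cells (green) and endothelium-like cells (red), with exact 95% counting intervals; genes under 20 UMIs in a set, or at 0 in a library, are not drawn, and dotted lines mark 2-fold. All black points lie above 0.9, and HOXA11 and HOXA13 are the highest red points together with HOXA6.

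Members with under 50 UMIs over both libraries included HOXB1, HOXB13, HOXC13 and HOXD12. They lay at the ends of the clusters, HOXB1 at the front and HOXC13, HOXD12 and HOXB13 among the last genes. HOXB13, the most posterior gene of cluster B and known from the tail and the prostate, had 0 UMIs in both libraries, or at most 0.0233 CPM when 0 is taken as 3 counts, over the kept Hulunbuir cells. No feature carried the symbol HOXA10. On the RefSeq annotation of a later assembly the models of several members overlap, among them HOXA3 with HOXA4, HOXA5 and HOXA6 and HOXB9 with HOXB7 and HOXB8, so that counts of these neighbours could be shared between them.

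The lists of HOX regulators are given by how many of their genes were higher in Hulunbuir cells that were not erythroid-like. Differences between the lists were not tested. Of the posterior activators, 7 of 8 tested were at least 2-fold higher in Hulunbuir, including CDX2 (25.5 and 1.31 CPM), CDX4 (13.6 and 0.334 CPM), FGF8 (28.6 and 1.42 CPM) and GDF11, a signal for the trunk to tail change (3.47 and 1.21 CPM), against the same 21.2% of all features. All posterior activators of the list except FGF4 and GDF11 are gate markers of the caudal progenitor-like class, and so is CYP26A1, below. That class held 852 Hulunbuir and 16 Ujumqin cells, and the part of these unlike numbers in the counts was not tested. Of the retinoic acid genes, 5 of 9 were higher, with CYP26A1, which degrades retinoic acid in the tail bud, at 5.47 and 0.144 CPM. The TALE cofactors, which bind DNA together with HOX proteins, had 2 of 8 higher (PKNOX2 and TGIF2), near the 21.2% of all features, and MEIS2 was at 33.2 and 28.3 CPM. Polycomb and trithorax genes, which keep HOX clusters shut or open, had 4 of 23 higher (EZH1, CBX2, CBX8 and MEN1), a share not above the 21.2% of all features. The short list of post-transcriptional and other regulators had 2 of 4 higher, and the ParaHox genes and cluster neighbours 3 of 7, against the same 21.2%. In these lists 0 tested genes were at least 2-fold lower, where 5.77% of all features were.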

How the data were processed

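Single-cell RNA was measured in 1 library of E16 embryos for each of 2 breeds. The authors deposited raw UMI counts per gene and barcode, made with Cell Ranger (5.0.0 in the file header, 3.1.0 in the submitters' notes) on the Rambouillet v1.0 reference and not normalized. The totals were 212933364 UMIs (Ujumqin) and 131385353 (Hulunbuir). The members and lists were chosen with earlier results of these data known.

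In a cell, a marker counted with at least 1 UMI and a level at or above its level over all kept cells. Each was weighted by minus log10 of the share of kept cells in which it counted, and the list of largest sum among those with at least 3 markers named the cell. This rule was set after looking at the data. The alternatives changed the cell filter, the number of markers, the doublets, the total, the call and the thinning. A class keeps a name if at least 3 of its markers were detected and no other list had more among its 10 genes of largest fold. Classes with at least 50 such cells in both libraries were compared. Genes with at least 50 UMIs are described. The limit given for a count of 0 is 3 counts. Otherwise the intervals are exact Poisson for levels, exact conditional binomial for folds and exact binomial for shares. Folds need at least 20 UMIs over both groups and, for calls, take a count of 0 as 3 counts. A symbol shared by several features (83 symbols, no member) was taken at its first feature. Doublets were kept in the main values and scored with Scrublet in scanpy 1.11.5 for an alternative. Sums and intervals came from scipy 1.17.1 and numpy 2.4.6, tables from pandas 2.3.3 and plots from matplotlib 3.10.9, all under Python 3.11.15. On simulated counts for the cells that are not erythroid-like, the 2-fold call recovered 200 of 200 genes changed 4-fold. It also called 63 of the other genes of 13251. These counts were drawn with counting error only, so they hold no difference between embryos or in cell make-up. Of 2649 simulated Hulunbuir cells, 2009 returned to their class and 462 went to another. No genome of the files' build was used here, so no coordinates or sequences are given. Some genes are not reported here.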

Additional observations from a re-analysis of the deposited data

Results flagged for a closer look

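A pair of features outside the members' rule carried HOX signal, because their symbols are written in another letter case. Hoxc8 stood at 3.58 CPM in Ujumqin and 11.6 CPM in Hulunbuir cells that are not erythroid-like, against 0.101 CPM in the erythroid-like cells of Ujumqin, and in Hulunbuir it was highest in the caudal progenitor-like cells at 40.3 CPM. hoxd11 stood at 0.370 CPM in Ujumqin and 2.23 CPM in Hulunbuir, where it was highest in the allantois-like cells at 5.15 CPM, stood at 3.503 CPM in the caudal progenitor-like and 1.43 CPM in the mesenchyme-like cells and had 0 UMIs in the presomitic mesoderm-like and somite-like cells.

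The barcodes left out by the cell filter also held HOX members, at 65.8 CPM in Ujumqin (57.4 to 75.1) and 314 CPM in Hulunbuir (294 to 336). The Ujumqin value lay above the 2.43 CPM of the erythroid-like cells of that library, Hulunbuir had only 3 such cells to compare with, and the kept cells of the same libraries held 52.0 and 352 CPM.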

How the results depend on the processing

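No paired analysis was possible because each breed has 1 library, and for the same reason no replicate could be left out. Of 330 alternative values for 32 results, 238 stayed close to the main value (within counting error for levels and folds), 92 moved and 0 reversed, and 150 of 150 alternative log2 folds were above 0. The causes of the moves were not tested. In this order stand, where they moved, the log2 fold of all members in cells not erythroid-like and in mesenchyme-like cells, the Hulunbuir levels (CPM) and the mean paralogue numbers. With 2 markers the fold was 1.81, and the mean paralogue number 6.58 (caudal progenitor-like) and 9.46 (mesenchyme-like). With 4 markers they were 2.10, 9.55 (endothelium-like) and 9.67 (mesenchyme-like), with paralogues 10 to 13 at 109 (mesenchyme-like) and 20.1 (caudal). Without the CDX genes in its list the caudal class had 20.4 for paralogues 10 to 13, a mean paralogue number of 6.41 and 46.9% of cells with a HOX UMI. Without the highest Scrublet scores the folds were 1.83 and 1.13, the caudal levels 799 in all and 19.9 for paralogues 10 to 13, and the mean paralogue numbers 9.63 (endothelium-like) and 9.69 (mesenchyme-like). Means of the cells' own CPM gave folds of 2.04 and 1.32, and 97.5 (endothelium-like) and 21.3 (caudal) for paralogues 10 to 13. Without 83 mitochondrial, ribosomal and haemoglobin features in the total, the caudal level was 1067, and paralogues 10 to 13 were at 147 (endothelium-like), 141 (mesenchyme-like) and 33.2 (caudal). A total without the 50 features highest in erythroid-like cells, chosen after seeing the data, shifted every log2 fold in cells not erythroid-like by -0.13, to 1.74 for all members, and gave 1154, 158, 151 and 35.9 for those levels. A 4-fold limit left 16 members higher. Thinned to 500, 2000 and no limit, 32.6%, 77.8% and 99.5% of caudal cells had a HOX UMI; of erythroid-like cells 0.109% at 500, 3.00% unthinned and 0.108% without the cell filter had one. Unthinned, 81.0% of the caudal cells with either had early and not late genes. The mean paralogue number over cells and within clusters A, B, C and D was 6.48, 5.93, 7.30, 7.30 and 6.45 (caudal), 9.23, 9.85, 6.98, 8.69 and 7.36 (endothelium-like), and 9.77, 9.76, 7.83, 9.72 and 8.51 (mesenchyme-like). Intervals cannot show differences between embryos, levels under about 20 UMIs are imprecise, and simulated allantois-like and splanchnic mesoderm-like cells returned to their class least often.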

Other observations

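Regulators outside the gate lists also differed between classes of the Hulunbuir library. GDF11 was at 12.1 CPM in the caudal progenitor-like, 6.70 in the presomitic mesoderm-like and 1.94 in the somite-like cells. The retinoic acid receptor gene RARG was at 24.4 CPM in the caudal progenitor-like, 13.1 in the presomitic mesoderm-like and 0.648 in the somite-like cells, while RARB was at 0.667, 0.837 and 2.59 CPM in the same classes. The RARB levels, and the GDF11 and RARG levels of the somite-like cells, each rest on under 20 UMIs and are imprecise. The cofactor genes MEIS1 and MEIS2 ran the other way from RARG. They were at 11.7 and 16.3 CPM in the caudal progenitor-like, 34.6 and 70.6 in the presomitic mesoderm-like and 56.3 and 111 in the somite-like cells. LIN28A, a regulator of developmental timing, was at 62.2 CPM in the caudal progenitor-like and 11.3 CPM in the endothelium-like cells, and LIN28B at 220 and 196 CPM. In Ujumqin, MEIS2 was at 28.3 CPM and LIN28A at 6.25 CPM in the cells that are not erythroid-like.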
